A study of Mus musculus with 69 samples.

Results

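WT–mCherry and WT–emiRFP are mouse embryonic stem (mES) cell clones that carry the same wild-type Trp53 and differ by design in their fluorescent nuclear label, and here their transcriptomes were compared at 0 h, before any gastruloid was made. Members were chosen by the sample labels alone: the 3 WT–mCherry and the 3 WT–emiRFP libraries of mES cells, 6 of the 69 bulk RNA sequencing libraries of the series. All genes of the count table were taken, and 18395 of 55367 gene symbols passed the low-count filter and were tested. According to the methods of the study, both clones came from the mES line E14Tg2A by piggyBac insertion at the same passage and single-cell sorting. WT–mCherry expresses H2B–mCherry from the EF1α promoter and WT–emiRFP expresses H2B–emiRFP670 from the CAG promoter. Each genotype is thus 1 clone, so that a difference between the labels, the insertion sites or the founder cells cannot be told apart. All mES cells were grown in serum and LIF on gelatin and were untreated. The 3 replicates of a clone are numbered in the labels and come from experiments at different times, which makes them repeats of 1 clone and not separate clones.

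The question was how alike the 2 wild-type clones are, since WT–emiRFP serves as the neighbour against which WT–mCherry cells are studied in mosaic gastruloids, aggregates of mES cells that model the gastrulating embryo. Mouse ES cells in serum and LIF cycle between states. Most express naive pluripotency factors, some drift towards primed pluripotency, and a rare and transient fraction switches on genes of the 2-cell embryo such as the Zscan4 cluster. Imprinted genes are expressed from only 1 parental allele under the control of DNA methylation that is set in the germ line, and this methylation can be lost or gained in cultured ES cells, where it is then inherited by daughter cells.

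The 6 libraries held 26722541 to 72981570 counts. The markers of mES cells were high in both clones: the summed normalized count of 11 markers was 402919 to 420930 in WT–mCherry and 406786 to 448815 in WT–emiRFP, and 0 of the 11 were called higher or lower by edgeR. Normalized counts are counts divided by a size factor set by the median ratio over all 69 libraries. The summed normalized count of 7 fibroblast markers was 695 to 759 in WT–mCherry and 558 to 603 in WT–emiRFP, and of the 5 that were tested 1 was lower (Col1a2). Within that list Lum and Dcn had at most 1.05 and 3.16 normalized counts in any of the 6 libraries, whereas Col1a1 had 61.7 to 114 and Thy1 had 176 to 225. The summed normalized count of 4 neural markers was 855 to 975 in WT–mCherry and 1381 to 1549 in WT–emiRFP, and of the 3 that were tested 1 was higher (Pax6). Within that list Neurog2 had at most 4.14 normalized counts in any library, whereas Sox1 had 344, 265 and 256 in WT–mCherry and 204, 201 and 206 in WT–emiRFP, lower in the clone with the higher sum, though not called. The part of other cell types in the differences between the clones was not tested. Trp53 was 24798, 24046 and 20697 in WT–mCherry, 27511, 25304 and 23677 in WT–emiRFP and 2331, 2532 and 2589 in p53KO–emiRFP, a knockout subclone of WT–emiRFP whose 3 mES libraries share the fit. The level of Trp53 was not called different between the WT clones (log2 fold change 0.14 ± 0.09 SE, edgeR adjusted p = 0.36).

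Among the 6, WT–emiRFP replicate 1 stood apart. Its shortest genes (up to 1424 bases, 1696 genes) had a median of 0.26 above the mean of the 9 mES libraries on the log2 scale and its longest (6282 bases and more, 1694 genes) a median of −0.27, against −0.08 to 0.01 and −0.02 to 0.13 in the other 8 libraries. Some of the results that it moves are given with and without it. WT–mCherry replicate 2 was high in a few genes of the primitive streak and posterior epiblast: T, which encodes Brachyury, had 43.9, 286 and 47.6 normalized counts in the 3 WT–mCherry replicates, and Nkx1-2 had 7.32, 204 and 8.27. Nkx1-2 and the unnamed locus Gm45889 had called differences (log2 fold changes −4.76 and −5.02, edgeR adjusted p = 0.0245 and 0.0432) that rest on this 1 library, and they are set aside below.

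Between the clones, 2033 genes were called at an adjusted p under 0.05, 11.1% of those tested. Of these, 1204 (6.55%) were higher and 829 (4.51%) lower in WT–emiRFP, and below a gene is said to have risen or fallen as its level was higher or lower in WT–emiRFP than in WT–mCherry. The p-values measure the spread between repeats of 1 clone. The differences were mostly small, with a median absolute log2 fold change of 0.65 among called genes, and 466 of them reached a log2 fold change of 1 in either direction, 128 higher and 338 lower in WT–emiRFP. Blocking on the replicate number raised the calls to 3179 (17.3%), 1859 higher (10.1%) and 1320 lower (7.18%). After a correction for GC content the split was 1060 higher (5.76%) and 1262 lower (6.86%), so the direction of the excess depended on that choice. The correction also moved the median log2 fold change of all genes from −0.006 to −0.049, and the part of this shift in the change of the split was not tested. The median log2 fold change rose with GC content over 10 equal groups of genes, from −0.115 in the lowest to 0.109 in the highest, and without WT–emiRFP replicate 1 these medians were −0.012 and 0.020. Without that library 2597 genes were called, 1505 higher and 1092 lower. Leaving out WT–emiRFP replicate 2 left 883 calls, and leaving out WT–mCherry replicates 1, 2 or 3 left 951, 1165 or 1274.

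**Figure D1:**
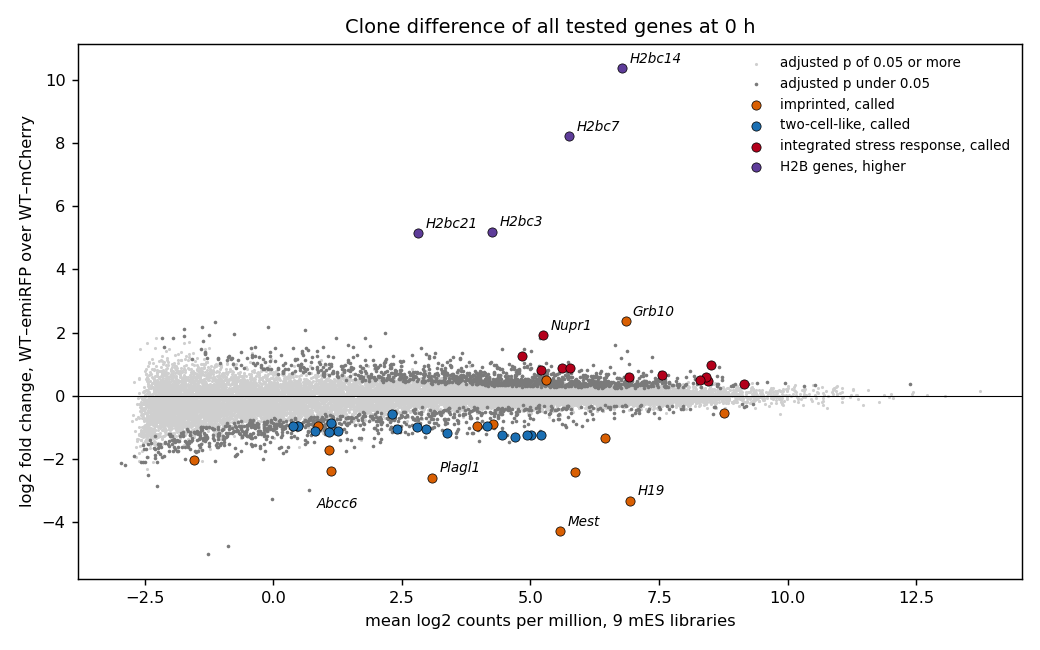
Each point is 1 of the 18395 tested genes, with its mean log2 CPM (counts scaled to the library total) in the 9 mES libraries on the horizontal axis and its log2 fold change of WT–emiRFP over WT–mCherry on the vertical axis. Dark grey points passed an adjusted p of 0.05. Coloured points are called members of 3 gene lists and the 4 H2B genes that were higher. The H2B genes lie far above all others, and Mest, at −4.29, is the lowest of the coloured imprinted genes.

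The largest differences in favour of WT–emiRFP were in 4 genes for histone H2B, the protein that is fused to the fluorophore in both labels. H2bc14 had 7.32, 8.21 and 6.20 normalized counts in WT–mCherry and 10517, 9952 and 9353 in WT–emiRFP (log2 fold change 10.36 ± 0.14 SE, edgeR adjusted p = 3.8e-14). H2bc7 rose by 8.22, H2bc3 by 5.20 and H2bc21 by 5.14 on the log2 scale. These 4 genes were also high in p53KO–emiRFP, which carries the same transgene, with 8482, 7976 and 8619 normalized counts for H2bc14. Of 15 H2B genes 12 were tested, and among the other 8 the only call was H2bc6, at 54.3, 39.9 and 45.5 in WT–mCherry and 21.3, 19.9 and 28.7 in WT–emiRFP, lower in the latter (edgeR adjusted p = 0.026). H2bc6 was not called without WT–mCherry replicate 1 or 3 or WT–emiRFP replicate 2. Reads of the H2B part of a transgene and of near-identical H2B genes cannot be told apart from those of the gene to which they were assigned. Among 26 tested genes for H2A, H3, H4 and linker histones, 0 were called by edgeR, with 3 at an unadjusted p under 0.05, 2 called by DESeq2, 3 called under the block and 4 without WT–emiRFP replicate 1.

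Among called genes with a mean of at least 1 log2 CPM over the 9 mES libraries, the 6 with the largest fold changes outside the H2B genes were imprinted genes (Mest, H19, Plagl1, Zdbf2, Nnat and Grb10). Called genes under that level, such as Abcc6, were not ranked. Of 37 tested imprinted genes 14 were called (37.8%, against 11.1% of all genes): 12 were lower and 2 higher in WT–emiRFP, and the median log2 fold change of the 37 was −0.38 against −0.006 of all genes. The 12 lower genes were Mest, H19, Plagl1, Zdbf2, Nnat, Nap1l5, Magel2, Peg3, Zrsr1, Usp29, Mcts2 and Peg10, and the 2 higher ones were Grb10 and H13. A grouping of the list by the allele that is usually expressed, made after these values were seen, placed 11 of the 12 lower genes among those expressed from the paternal allele, H19 being the exception. Of 24 tested paternally expressed genes 11 were lower and 0 higher, with a median of −0.74. Of 13 tested maternally expressed genes 2 were higher and 1 lower, with a median of −0.24. The 23 members that were not called had log2 fold changes from −0.82 (Peg13) to 0.16 (Copg2), 20 of them below 0.

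Promoter windows of 5 of the called genes are shown for their CpG sites, since imprints are kept as DNA methylation of CpG-rich control regions. A window at the RefSeq start need not hold the control region of its gene, which for Grb10 lies further downstream, and DNA methylation was not measured here. Each line gives the 250 bases before the transcription start, 5′ to 3′ on the strand of the gene, from RefSeq on GRCm38.p6, with every CpG in capitals. Mest and Grb10 have further start sites, whose windows are not shown. The windows lie at chr6:30737800-30738049 (Mest, plus strand), chr10:13090582-13090831 (Plagl1, plus strand), chr2:157559828-157560077 (Nnat, plus strand), chr7:6730420-6730669 (Peg3, minus strand) and chr11:12037421-12037670 (Grb10, minus strand).
Mest: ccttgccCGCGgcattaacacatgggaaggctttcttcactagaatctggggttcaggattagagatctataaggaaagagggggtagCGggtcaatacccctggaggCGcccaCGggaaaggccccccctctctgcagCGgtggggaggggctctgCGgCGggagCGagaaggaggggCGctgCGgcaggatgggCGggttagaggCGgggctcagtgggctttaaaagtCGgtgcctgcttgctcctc
Plagl1: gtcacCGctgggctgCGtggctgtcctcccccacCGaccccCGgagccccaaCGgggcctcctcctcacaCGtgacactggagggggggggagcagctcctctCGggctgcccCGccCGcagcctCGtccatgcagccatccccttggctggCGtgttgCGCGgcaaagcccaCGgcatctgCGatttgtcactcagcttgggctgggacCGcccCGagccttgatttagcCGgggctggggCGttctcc
Nnat: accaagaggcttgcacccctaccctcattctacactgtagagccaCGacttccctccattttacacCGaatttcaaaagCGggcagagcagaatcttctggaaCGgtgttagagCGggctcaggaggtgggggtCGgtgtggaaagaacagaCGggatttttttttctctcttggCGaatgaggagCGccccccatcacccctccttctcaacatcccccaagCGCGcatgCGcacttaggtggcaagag
Peg3: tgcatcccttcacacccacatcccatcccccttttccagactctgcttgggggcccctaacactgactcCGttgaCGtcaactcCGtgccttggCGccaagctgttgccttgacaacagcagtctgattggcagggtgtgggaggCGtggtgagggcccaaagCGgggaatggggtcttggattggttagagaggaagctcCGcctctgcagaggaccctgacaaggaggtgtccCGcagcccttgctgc
Grb10: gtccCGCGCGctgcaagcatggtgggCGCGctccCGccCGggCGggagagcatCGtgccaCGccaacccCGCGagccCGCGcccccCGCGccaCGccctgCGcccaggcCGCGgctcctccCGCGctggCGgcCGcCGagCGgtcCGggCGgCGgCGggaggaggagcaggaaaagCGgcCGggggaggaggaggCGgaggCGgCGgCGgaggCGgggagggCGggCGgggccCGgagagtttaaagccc

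These windows hold 14 CpGs for Mest, 19 for Plagl1, 12 for Nnat, 8 for Peg3 and 40 for Grb10, against a median of 6 over 32851 promoter windows of the same length. In the same order, 29.4%, 19.7%, 33.5%, 43.0% and 1.31% of all windows held at least as many, so only that of Grb10 was unusual. The hexamer TGCCGC, which the imprint-keeping protein ZFP57 binds when its CpG is methylated, was searched on both strands and stood in 8.68% of all windows. Among the called imprinted genes 12 of 14 had a window in the table, and 5 of them had a match (Mcts2, Mest, Nap1l5, Plagl1 and Zdbf2). Among those not called, 3 of 20 had one (Copg2, Meg3 and Zim1). Some genes have more than 1 window. Counted by window, as the share of all windows is, a match stood in 6 of 16 of the called genes and 3 of 34 of those not called. H19 and Peg10 had no window.

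Mest, an enzyme-like protein of the alpha/beta hydrolase fold and a marker of paternal expression, had 7367, 7368 and 7342 normalized counts in the 3 WT–mCherry replicates and 330.5, 440.0 and 363 in WT–emiRFP. The clones lay far apart with little spread inside each, a 19.5-fold lower level in WT–emiRFP (log2 fold change −4.29 ± 0.12 SE, edgeR adjusted p = 7.5e-11). Mest spans chr6:30723547-30748465 on GRCm38. H19, a long noncoding RNA of the Igf2 locus at chr7:142575529-142578143, had 19315, 15358 and 16511 in WT–mCherry and 1847, 1714 and 1575 in WT–emiRFP, a change of −3.32 ± 0.13 SE (edgeR adjusted p = 6.3e-09). Its neighbour Igf2 was low in both clones, 133, 124 and 143 and 135, 118 and 169.7, and was not called. Plagl1, a zinc finger transcription factor, had 1144, 1043 and 1156 against 123, 177 and 256 (log2 fold change −2.59 ± 0.21 SE, edgeR adjusted p = 2.6e-05).

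Zdbf2, a zinc finger gene at chr1:63273265-63314576, had 6273, 7796 and 7732 in WT–mCherry and 595, 1602 and 1933 in WT–emiRFP, with the lowest value in the library that stood apart. Its log2 fold change was −2.40 ± 0.30 SE and −2.04 without that library (edgeR adjusted p = 0.00055 and 5.7e-07). The noncoding transcript Platr12, named here after its values were seen, lies upstream at chr1:63200313-63207967, and its start is 45 bases from an upstream Zdbf2 start in RefSeq. Platr12 moved the same way, with 152, 150.1 and 141 and 8.70, 23 and 15.3 (log2 fold change −3.27 ± 0.29 SE, edgeR adjusted p = 4.1e-05). Nnat, a small membrane protein gene, had 287, 286 and 213 against 49, 49.1 and 55.7, and Nap1l5, a nucleosome assembly protein gene, had 37.6, 36.4 and 51.7 against 6.32, 11.5 and 12.6. Magel2 had 246, 167 and 145 against 62.5, 47 and 62.8.

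Peg3, a zinc finger gene, and Usp29, a deubiquitinase gene that starts next to it in the opposite direction, fell by 1.32 and 0.95 on the log2 scale. Peg3 had 7642, 7628 and 7397 in WT–mCherry and 2242, 3333 and 3525 in WT–emiRFP. The call of Usp29 was lost without WT–mCherry replicate 1 or WT–emiRFP replicate 2. Zrsr1, a splicing factor gene, fell by 0.96, Mcts2, a retrogene inside H13, by 0.88 and Peg10, a retrotransposon-derived gene, by 0.54. H13, which encodes signal peptide peptidase and is expressed in the opposite way to Mcts2, had 1488, 1596 and 1869.5 against 2390.0, 2336 and 2283, higher in WT–emiRFP (log2 fold change 0.50 ± 0.10 SE, edgeR adjusted p = 0.0096), a call that was lost without WT–mCherry replicate 1. Grb10, an adaptor that restrains insulin and IGF receptors, had 1768, 1650.4 and 1578 in WT–mCherry and 6545, 9317 and 9731 in WT–emiRFP, 5.12-fold higher (log2 fold change 2.35 ± 0.14 SE, edgeR adjusted p = 7e-07).

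Several well-known imprinted genes were not called. Snrpn had 2589, 2551 and 3234 against 2626, 2543 and 2431, Meg3 3966, 4349.5 and 5292 against 3654, 3889 and 3881, and Igf2r 8688, 9819 and 9813 against 7104, 10375 and 11811. p53KO–emiRFP, derived from WT–emiRFP, had 272, 313 and 289 counts of Mest, 1421, 1854 and 1928 of H19, 113, 155 and 158 of Plagl1 and 8051, 9036 and 9795 of Grb10, each beside the WT–emiRFP values. For Peg10 it had 27597, 24706 and 26843, beside 26932, 28852 and 26082 in WT–mCherry and 16263, 20396 and 19514 in WT–emiRFP. Of 11 tested genes that write, keep or remove DNA methylation 0 were called by edgeR or DESeq2 and 2 had an unadjusted p under 0.05. Trim28 was the 1 called under the block (log2 fold change −0.29, edgeR adjusted p = 0.039). Dnmt1 had 23406, 23729 and 23178 against 23040.0, 25332 and 25209, and Zfp57 23773, 25173 and 26262 against 23588, 26087 and 26338. Tet1 and Tet2, long transcripts, had 15159, 30728 and 33691 and 4749.9, 9365 and 9931 in WT–emiRFP, the lowest value being that of the library that stood apart.

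**Figure D2:**
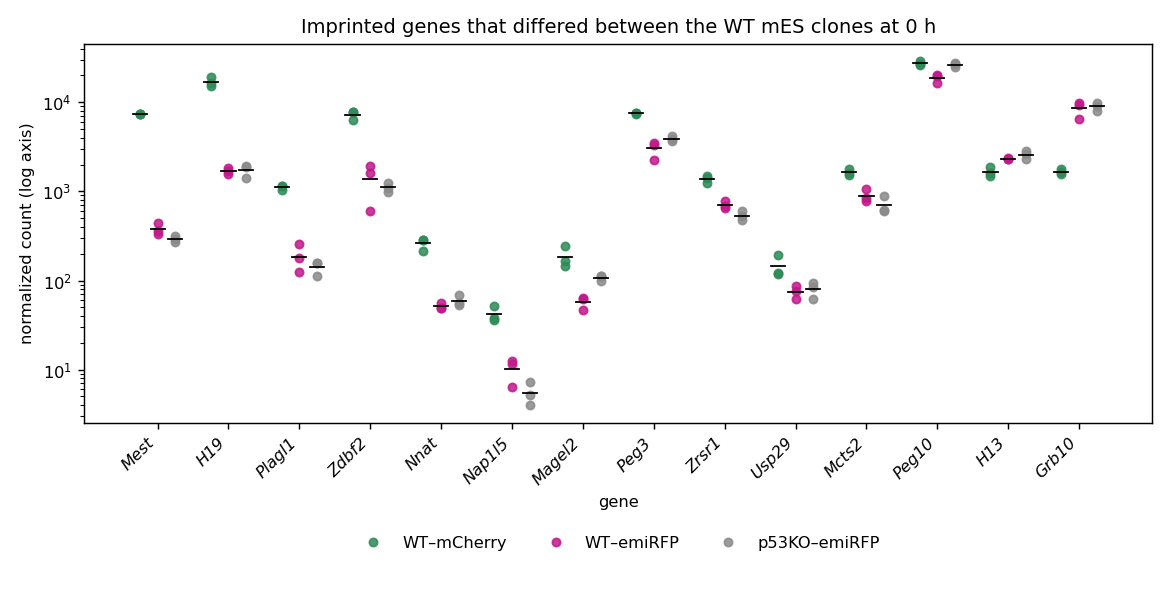
Normalized counts on a log axis of the 14 called imprinted genes, ordered by log2 fold change, in the 3 replicates of each mES clone at 0 h. Points are libraries and bars are means. For each of the 14 genes the 3 WT–mCherry points lie on 1 side of the 3 WT–emiRFP points, as they do for 2024 of all 2033 called genes.

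Whether these differences last was examined in cells sorted from WT + WT mosaic gastruloids at 48, 72, 96, 120 and 144 h, 30 other libraries of the same clones with 3 replicates per clone and time. At these times 1572 (8.9%), 1354 (7.64%), 395 (2.15%), 231 (1.22%) and 4616 (23.8%) genes were called between the clones, and with the replicate block 5098, 2865, 2927, 2040 and 6573. The shares of tested genes that were higher in WT–emiRFP were 4.19%, 4.35%, 1.26%, 0.704% and 10.8%, and those lower 4.71%, 3.3%, 0.893%, 0.518% and 13%. In the same order of times, 476, 298, 135, 90 and 664 of the 2033 genes called in mES cells were called again in the same direction. These were 23.4%, 14.7%, 6.64%, 4.43% and 32.7% of the mES calls and 30.3%, 22%, 34.2%, 39.0% and 14.4% of the calls at each later time. Calls in the opposite direction numbered 36, 52, 17, 6 and 117. In all 40 genes were called in 1 direction at all 6 time points (0.245% of those tested at each), 18 higher and 22 lower in WT–emiRFP, and 12 of the 40 were members of the imprinted list. With the replicate block 101 genes were called throughout, and with only the compared libraries in each fit 24 were.

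The 12 imprinted genes were all those called at 0 h but Magel2 and Peg10. Mest had log2 fold changes of −3.94, −3.68, −3.52, −2.54 and −2.91 from 48 to 144 h, while its mean in WT–mCherry cells was 8924 normalized counts at 48 h and 67077 at 144 h. H19 had −3.50, −4.12, −4.51, −2.82 and −2.71, and its mean in WT–mCherry cells went from 1224 at 48 h to 47000.0 at 144 h. Plagl1 had −2.39, −2.99, −2.06, −2.08 and −2.45. Grb10 had 2.01, 2.77, 3.79, 3.84 and 2.86, reaching means of 1403 in WT–mCherry and 20138 in WT–emiRFP cells at 120 h. The 12 genes were picked for being called in the same direction at all 6 times. Their shared direction and their edgeR adjusted p under 0.05 in these separate sets of libraries thus follow from that choice.

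Magel2 did not keep its difference at the next time points. Its log2 fold changes were −0.07, 0.14, 0.01, −0.50 and −0.86, with 788 and 753 mean counts in the clones at 48 h, and its clone difference at 48 h differed from that at 0 h by 1.65 ± 0.21 SE (edgeR adjusted p of the interaction 0.00014). For Zdbf2 the corresponding difference was 1.15 ± 0.35 (edgeR adjusted p = 0.06), and its log2 fold changes were −1.25, −0.59, −0.54, −0.62 and −0.97. Peg10 had −0.21, −0.27, −0.08, 0.08 and −0.26. Of the imprinted list 13 of 36 tested members were lower and 2 higher in WT–emiRFP cells at 48 h (41.7% called, against 8.9% of all genes). By 144 h 21 of 38 were lower and 5 higher (68.4% called, against 23.8% of all genes).

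**Figure D3:**
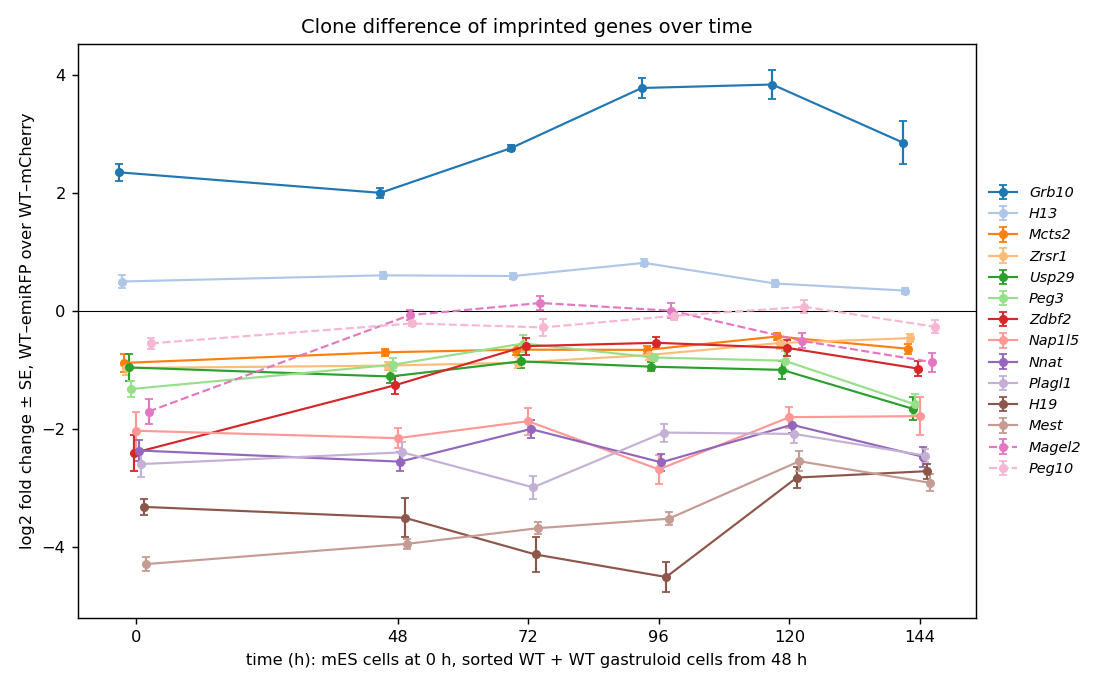
Log2 fold change of WT–emiRFP over WT–mCherry with its standard error (vertical axis) against time in hours (horizontal axis), for the 14 imprinted genes called at 0 h, with points shifted sideways to part them. The value at 0 h is from mES cells and later ones are from sorted cells of WT + WT gastruloids. Grb10 lies above and Mest, H19, Plagl1 and Nnat far below 0 at every time, and the dashed lines mark Magel2 and Peg10, which are at −0.07 and −0.21 at 48 h.

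Other genes with a lasting difference included Abcc6, a membrane transporter, at 248, 238 and 238 in WT–mCherry and 38.7, 25.1 and 27.8 in WT–emiRFP mES cells (log2 fold change −2.96 ± 0.19 SE, edgeR adjusted p = 2e-06) and at −2.95, −2.28, −1.82, −2.27 and −1.84 later. Its neighbour on chromosome 7, Nomo1, was higher in WT–emiRFP by 0.80. The RNA export factor gene Nxf3 fell by 1.76 in mES cells. Cdkn2a, which encodes the cell cycle inhibitors p16INK4a and p19ARF, had 172, 145 and 105 in WT–mCherry and 462, 293 and 275 in WT–emiRFP (log2 fold change 1.26 ± 0.21 SE, edgeR adjusted p = 0.0035), and 0.98, 1.00, 0.98, 0.89 and 0.74 later. Ccnd1, the cyclin D1 gene, fell by 0.75. Aass, an enzyme of lysine breakdown, had 689.8, 828 and 1029.9 against 2805, 2921 and 3202, and Stag3, a cohesin subunit of meiosis, had 1766, 2151 and 2308 against 5364, 7194 and 6576, both higher in WT–emiRFP at all 6 times.

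H2bc14 also stayed high in WT–emiRFP, with log2 fold changes of 7.31, 7.12, 6.91, 5.96 and 6.34. In the WT–mCherry cells of gastruloids its mean was 48.8 at 48 h and 105 at 120 h, against 6.20 to 8.21 in WT–mCherry mES cells. Its clone difference at 48 h was 3.06 ± 0.45 SE smaller than at 0 h on the log2 scale (edgeR adjusted p of the interaction 0.00038). The WT–mCherry mES libraries held only 3 to 7 raw counts of H2bc14. Per the study, the purity of the sorted RNA samples was not checked, and its part in this change was not tested.

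Genes of the 2-cell-like state were lower in WT–emiRFP. Of 19 tested members 17 were lower and 0 higher (89.5% called), with a median log2 fold change of −1.09. Over all genes 11.1% were called and 4.51% were lower. Zscan4d, of the gene cluster that marks this state, had 2978, 2516 and 3509 in WT–mCherry and 1656, 950.0 and 1187 in WT–emiRFP, and Zscan4e had 2882, 2249 and 2742 and 1204, 889 and 1079 (log2 fold change −1.31 ± 0.16 SE, edgeR adjusted p = 0.0004). In bulk RNA fewer 2-cell-like cells and less RNA per such cell cannot be told apart. Usp17le, a deubiquitinase gene of the state, had 1741, 1361 and 1613 and 1021, 636 and 780.1. Tmem92 fell by 1.00 and Zfp352 by 1.14. The copies of the Zscan4, Usp17l and Tdpoz families are near-identical, so that their separate values are uncertain. The 3 replicates of WT–emiRFP differed, replicate 1 being the highest for 5 of the 6 Zscan4 genes, and without it all 19 were lower (median −1.35). Without WT–emiRFP replicate 2 or WT–mCherry replicate 1, 10 of the 19 were called, and Zfp352 was among those lost.

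In the sorted cells 18 of 19 were lower at 48 h (94.7%, median −1.36, against 4.71% of all genes lower), 3 of 19 at 72 h (15.8%, against 3.3%) and 1 of 19 at 144 h (5.26%, against 13%). At 96 and 120 h 0 of 17 and 0 of 19 were called by edgeR or DESeq2, with 0 and 5 at an unadjusted p under 0.05. The list medians at 72, 96, 120 and 144 h were −0.603, −0.145, −0.388 and −0.214, with 0, 6, 0 and 2 members above 0. These calls are from fits without the replicate block. Zscan4d had log2 fold changes of −1.08, −0.59, −0.47, −0.42 and −0.16. Its mean in WT–mCherry cells was 694 at 48 h and 84.5 at 96 h.

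Genes of the integrated stress response were higher in WT–emiRFP. This pathway slows protein synthesis and, through the transcription factor ATF4, raises genes for amino acid uptake and synthesis. Of 22 tested members 12 were higher and 0 lower (54.5%), with a median of 0.60. Over all genes 11.1% were called and 6.55% were higher. Atf4 had 10634, 13859 and 13864 in WT–mCherry and 25221, 25302 and 24605 in WT–emiRFP (log2 fold change 0.97 ± 0.11 SE, edgeR adjusted p = 0.00031). Nupr1, a stress-induced nuclear protein, had 463, 718 and 612 and 1856, 2359.8 and 2567 (1.92 ± 0.21 SE, edgeR adjusted p = 0.0002), and Chac1, which breaks down glutathione, had 499, 821 and 730.0 and 1268, 1898 and 1745. The clones did not overlap in these genes, as in 2024 of all 2033 called genes.

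Ppp1r15a, which reverses the block of translation, rose by 0.88, and Trib3, a pseudokinase that restrains the pathway, by 0.88. The amino acid transporter genes Slc7a5 and Slc3a2 rose by 0.60 and 0.51, and the one-carbon and serine enzymes Shmt2, Mthfd2 and Psat1 by 0.48, 0.65 and 0.37. Pck2 and Aldh18a1 were the remaining called members. Without WT–emiRFP replicate 2 or WT–mCherry replicate 1, 8 of the 22 were called, and Mthfd2 and Psat1 were among those lost. Psat1 was also lost without WT–mCherry replicate 2. Asns had 18386, 19697 and 19222 and 21358, 21818 and 22369 and was not called, nor was Ddit3, which encodes CHOP (354, 465 and 451 against 562, 709 and 743). The medians of the 3 same-numbered pairs were 0.59, 0.59 and 0.57. Later, 4 of 22 were higher and 0 lower at 48 h (18.2%, median 0.169), and 2 were higher and 2 lower at 72 h (18.2%, median 0.041), against 8.9% and 7.64% of all genes called. At each of 96 and 120 h 1 was higher (4.55%, against 2.15% and 1.22%), with medians of −0.07 and −0.009. At 144 h 14 were higher and 2 lower (72.7%, against 23.8% of all genes). The Nupr1 difference was 0.66, 0.18, 0.48, 0.82 and 1.22, and it was smaller at 48 h than at 0 h by 1.26 ± 0.23 SE (edgeR adjusted p of the interaction 0.0032).

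Matches to TGATGNAA, the core of the site that ATF4 binds with its partners, are shown in capitals in the upstream windows of Nupr1 (chr7:126625471-126625720, minus strand) and Chac1 (chr2:119350992-119351241, plus strand) on GRCm38.p6, read from RefSeq 5′ to 3′ on the strand of the gene.
Nupr1: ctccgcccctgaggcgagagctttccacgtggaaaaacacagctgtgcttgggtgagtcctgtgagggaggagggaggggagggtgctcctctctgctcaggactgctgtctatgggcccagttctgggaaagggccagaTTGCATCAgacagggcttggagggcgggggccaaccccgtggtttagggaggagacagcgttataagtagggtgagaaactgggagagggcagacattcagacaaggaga
Chac1: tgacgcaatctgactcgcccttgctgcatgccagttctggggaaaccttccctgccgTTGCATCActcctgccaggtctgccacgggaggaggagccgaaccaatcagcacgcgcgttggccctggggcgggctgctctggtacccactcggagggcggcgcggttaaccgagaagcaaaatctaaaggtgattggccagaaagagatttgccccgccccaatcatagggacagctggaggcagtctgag

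The match stood in 3.45% of all windows on either strand, in 3 of the 11 called members with a window (Chac1, Nupr1 and Pck2) and in 4 of the 9 members that were not called (Asns, Atf3, Slc7a11 and Vldlr). Some genes have more than 1 window. Counted by window, it stood in 3 of 12 of the called members and 4 of 11 of those not called.

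**Figure D4:**
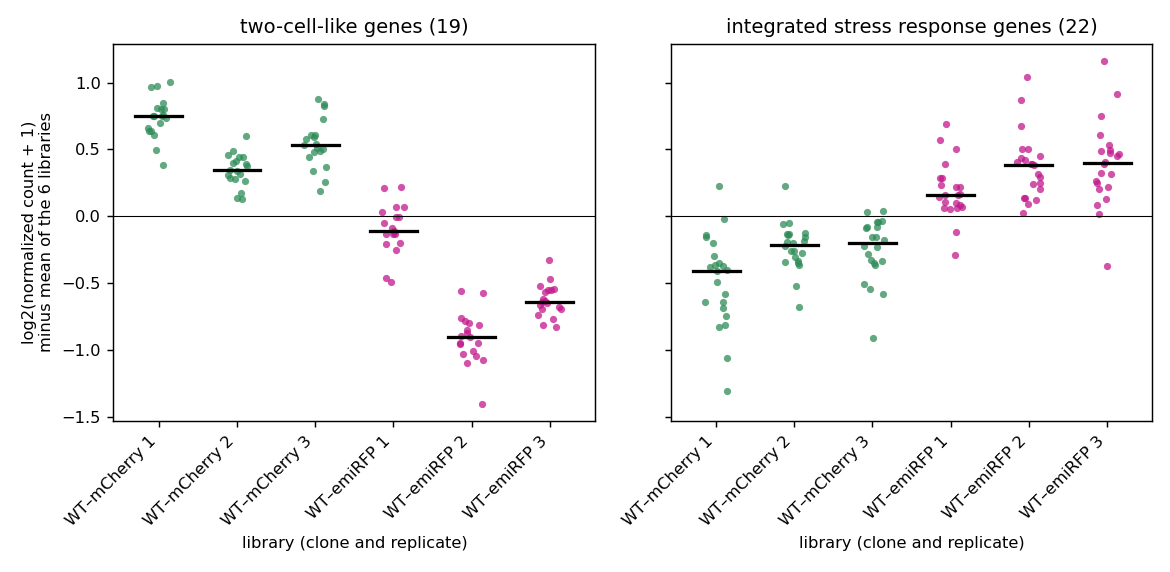
Each point is a gene of the 2-cell-like list (left, 19 genes) or the integrated stress response list (right, 22 genes) in 1 library, as log2(normalized count + 1) minus its mean over the 6 libraries of both WT clones. Bars are medians over genes. The WT–mCherry medians of the 2-cell-like genes all lie above 0 and those of WT–emiRFP below, and for stress genes the reverse holds.

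Of 8 core pluripotency factors 0 were called by edgeR or DESeq2 and 0 had an unadjusted p under 0.05, while 1 was called without WT–emiRFP replicate 1 and 2 after GC correction. Pou5f1 had 33545, 34356 and 35597 against 37569, 32844 and 29637, and Sox2 24134, 23588 and 26421 against 24014, 25096 and 29213. Among 24 naive factors 4 were called (16.7%, against 11.1% of all genes): 3 were higher (Tcl1 by 0.64, Dppa3 by 0.64 and Nr0b1 by 0.45) and 1 lower (Tbx3, 11625, 10198 and 10553 against 7323, 6895 and 7943). The block called 7 of the 24. In gastruloids 14 of the 24 were lower and 0 higher at 48 h (median −0.274) and 15 lower and 0 higher at 72 h (median −0.523), against 4.71% and 3.3% of all genes lower. At 96 h 1 was lower (4.17%, against 0.893% of all genes lower), and at 120 h 4 were higher (16.7%, against 0.704% higher). At 144 h 18 were higher and 2 lower (83.3%, against 23.8% of all genes called). The call of Dppa3 was lost without WT–mCherry replicate 2 or 3 or WT–emiRFP replicate 1, and that of Nr0b1 without WT–mCherry replicate 1 or 3 or WT–emiRFP replicate 2 and after GC correction (edgeR adjusted p = 0.069). Of 17 tested genes of formative and primed pluripotency 5 were called (29.4%): 4 were lower (Otx2, Pou3f1, Fgf5 and Krt18, by 0.50, 0.58, 0.91 and 0.65) and 1 higher (Zic2, 0.46). Zic2 was not called after GC correction (edgeR adjusted p = 0.078). These 5 calls were fragile: 0 were made without WT–emiRFP replicate 2 or WT–mCherry replicate 3, 1 without WT–mCherry replicate 1 and 2 without WT–mCherry replicate 2.

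Lefty1 and Lefty2, secreted inhibitors of Nodal, were higher in WT–emiRFP, while Nodal itself had 7699, 5719.5 and 5435 against 7082, 5935 and 5878. Lefty1 had 5079, 5160.0 and 4078 in WT–mCherry and 11185, 11778 and 10366 in WT–emiRFP (log2 fold change 1.22 ± 0.11 SE, edgeR adjusted p = 6.4e-05), and Lefty2 2419.5, 3233 and 3166 and 6416, 8861 and 8439. They lie close together on chromosome 1, in 1 of the runs of called genes counted below. They were the only called members of 15 tested genes of the primitive streak and mesendoderm (13.3%, near the 11.1% of all genes), a list whose median was −0.272. Of these 15 the block called 3 higher and 2 lower, and the GC correction 2 higher and 3 lower. Without WT–emiRFP replicate 1 there were 3 higher and 1 lower. In gastruloids Lefty1 had log2 fold changes of 0.41, 0.49, 0.30, −0.21 and 0.28 and Lefty2 of 0.64, 0.16, 0.81, 0.01 and 0.62.

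Markers of extra-embryonic cells were in part lower in WT–emiRFP. At 0 h 11.1% of all genes were called and 4.51% were lower. Of 11 tested trophoblast markers 6 were lower and 0 higher (54.5%, median −0.80), namely Krt7, Krt8, Gata2, Plac1, Ascl2 and Hand1, and the 2 clones overlapped for Hand1. Krt7 had 549.8, 479.8 and 548 against 304, 212 and 247. Elf5, a defining factor of trophoblast, had at most 8.27 normalized counts in any library, and the summed level of 5 defining markers was 966 to 1207 in WT–mCherry and 482 to 747 in WT–emiRFP. Of 16 primitive endoderm genes 6 were lower and 0 higher (37.5%, median −0.132), namely Col4a1, Col4a2, Lamb1, Cubn, Dab2 and Pdgfra. Col4a1 had 6639, 5731 and 7133 against 3757, 3995 and 4105, whereas Gata4 (240.4, 224 and 246 against 308, 266 and 307) and Sox17 (49.1, 49.3 and 62 against 57.7, 48.1 and 58.4) were not called. Without WT–emiRFP replicate 2, 2 trophoblast and 3 primitive endoderm genes were called, and without WT–mCherry replicate 1, 2 trophoblast genes. The part of a small number of such cells was not tested. In gastruloids at 48 h, 0 of 10 trophoblast genes were higher and 2 lower, and of 16 primitive endoderm genes 1 was higher and 1 lower (12.5%), against 8.9% of all genes called. At 144 h 3 of 11 trophoblast genes were higher and 2 lower (45.5%, against 23.8% of all genes called), and of 16 primitive endoderm genes 0 were higher and 1 lower (6.25%).

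Genes of the germ line, the X chromosome and p53 showed smaller groups of calls. Of 23 germline genes 4 were lower (Dazl, Sohlh2, Tuba3b and Asz1) and 2 higher (Tuba3a and Smc1b), 26.1% in all against 11.1% of all genes. Dazl, an RNA-binding protein of germ cells, had 1202, 1258 and 1748 against 444, 636 and 893. Without WT–emiRFP replicate 2, 3 germline genes were called. In gastruloids 8 of 22 were lower and 1 higher at 48 h and 11 of 20 lower at 72 h, against 4.71% and 3.3% of all genes lower. At 96 h 2 of 21 were lower (9.52%, against 0.893% of all genes lower) and at 120 h 3 of 22 higher (13.6%, against 0.704% higher). At 144 h 10 of 23 were higher and 0 lower (43.5%, against 23.8% of all genes called). Of 7 tested homeobox genes of the X-linked Rhox cluster 5 were lower and 0 higher (71.4%, against 11.1% of all genes called). Rhox10 had 150.5, 108 and 116 against 46.6, 29.3 and 35. Of the 7, 3 were called without WT–emiRFP replicate 2 or 3 or WT–mCherry replicate 1 or 3. In gastruloids 4 of 7 were lower at 48 h, 4 of 5 at 72 h and 2 of 5 at 96 h, against 4.71%, 3.3% and 0.893% of all genes. At 120 h 0 of 12 were called by edgeR or DESeq2, with 2 at an unadjusted p under 0.05. At 144 h 1 of 15 was higher and 0 lower (6.67%, against 23.8% of all genes called). Over the X chromosome 30 of 662 tested genes were higher and 75 lower (15.9% called, against 11.1% of all genes). The median was −0.11 against −0.06 to 0.045 on the autosomes, and −0.07 against −0.05 to 0.024 without WT–emiRFP replicate 1. Of 36 p53 target genes 6 were lower (Pmaip1, Plk2, Btg2, Polk, Ccng1 and Ckap2) and 1 higher (Gdf15), 19.4% in all against 11.1% of all genes. Under the block 12 were called, without WT–emiRFP replicate 2 there was 1, and without WT–mCherry replicate 1 there were 2. Gdf15 was not called after GC correction. Pmaip1, which encodes the apoptosis inducer Noxa, had 1615, 1185 and 1543 against 604, 650.0 and 921 (edgeR adjusted p = 0.0052). Mdm2 had 13682, 9699.5 and 9143 against 8795, 7929 and 8747 and Bbc3, which encodes Puma, 2830.3, 2035 and 1255 against 2472, 1799 and 1951, and neither was called. At both 48 and 72 h 3 of the 36 p53 targets were higher and 1 lower (11.1%, near the 8.9% and 7.64% of all genes called at these times), and at 96 h 1 was higher and 1 lower (5.56%, against 2.15%). At 120 h 0 were called by edgeR, with 1 called by DESeq2 and 5 at an unadjusted p under 0.05, and at 144 h 12 were higher and 0 lower (33.3%), against 10.8% of all genes higher and 23.8% called.

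Of 22 tested Bcl2 family members and caspases, regulators of apoptosis, 3 were higher and 3 lower (27.3%, against 11.1% of all genes), with a median of 0.029. Hrk rose by 1.32, Casp9 by 0.65 and Bid by 0.30, and Casp8 fell by 0.93 and Bcl2l11 by 0.30, Pmaip1 being the remaining fall. Hrk was not called without WT–mCherry replicate 1 or WT–emiRFP replicate 2, Bid without any 1 of the 3 WT–mCherry replicates or WT–emiRFP replicate 2, and Bcl2l11 without any 1 of the 3 WT–mCherry replicates or WT–emiRFP replicate 1 or 2. Of 6 tested early neural genes 2 were higher and 1 lower (50%, against 11.1% of all genes). The list median was −0.221, with 3 of the 6 above 0 and 3 below. Pax6 had 609, 581 and 622 against 1165, 1221 and 1332 (log2 fold change 1.04 ± 0.10 SE, edgeR adjusted p = 0.00011), and Msi1 rose by 0.85. Nes fell by 0.53, a call lost without WT–mCherry replicate 2 or 3 or WT–emiRFP replicate 2. Of 24 tested antiviral genes 2 were higher and 1 lower (12.5%): Eif2ak2, the kinase PKR that senses double-stranded RNA, rose by 0.90 and Ifitm3 by 0.62, and Ifit2 fell by 0.85. Of 14 genes of MHC class I 1 was higher (H2-K1, a class I antigen, by 0.47) and 1 lower (Nlrc5, a regulator of these genes, by 0.97). The call of Ifit2 was lost without any 1 of the 3 WT–mCherry replicates or WT–emiRFP replicate 2 or 3, and that of Nlrc5 without WT–mCherry replicate 1 or 2. Other lists near or below the background of 11.1% included BMP targets (1 of 12, Bmp4, higher by 0.59), Wnt targets (1 of 17), ERK targets (1 of 17), YAP targets (1 of 11), Myc and ribosome biogenesis (1 of 27), DNA replication and G1/S (1 higher and 1 lower of 20), cholesterol synthesis (3 of 23 higher, 7 under the block), glycolysis and hypoxia (3 of 29 higher, 8 called under the block), mitotic genes (1 of 20) and cytosolic ribosomal proteins (4 of 75 higher, 11 under the block). The ribosomal protein median was 0.18 and 0.05 without WT–emiRFP replicate 1, and 12 ribosomal protein genes were called without WT–emiRFP replicate 3, against 0 without WT–emiRFP replicate 2 or WT–mCherry replicate 3. Among 11 mitochondrially encoded genes and among 21 protocadherins 0 were called by edgeR, with 0 and 3 at an unadjusted p under 0.05 and 0 and 2 called by DESeq2.

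Other genes among the 12 largest rises included Serpinf1, Catsperg1 and Gjb1, and among the 12 largest falls were Kcnj3, Rbfaos, Scml2, Inka2 and Nt5e. Kcnj3, a potassium channel gene, had 206, 174 and 239.9 against 71.2, 61.7 and 66.4. Nt5e, which encodes the ectoenzyme CD73, had 395, 428 and 397 against 121, 179.8 and 171. Inka2 had 434, 242 and 205 against 153, 78.4 and 107 and was not called without WT–mCherry replicate 1 or WT–emiRFP replicate 2. Runs of 4 or more adjacent tested genes called in 1 direction numbered 12 and held 53 genes, 6 runs higher and 6 lower. The lower runs were a Zscan4 stretch on chromosome 7, the Tmem92 region on chromosome 11, a family of unnamed genes around Gm2022 on chromosome 12, and on the X chromosome the Rhox cluster, the Fthl17 cluster and a region with Ct55, Zfp36l3 and Xlr. The higher runs included Gstm1 to Gstm4, glutathione transferases on chromosome 3, and Cdk2, Pmel, Dgka and Pym1 on chromosome 10. Reads may be shared between near-identical copies in the Rhox, Xlr, Fthl17, Gstm, Tuba3 and class I antigen families, and the separate values of these genes are uncertain.

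**Figure D5:**
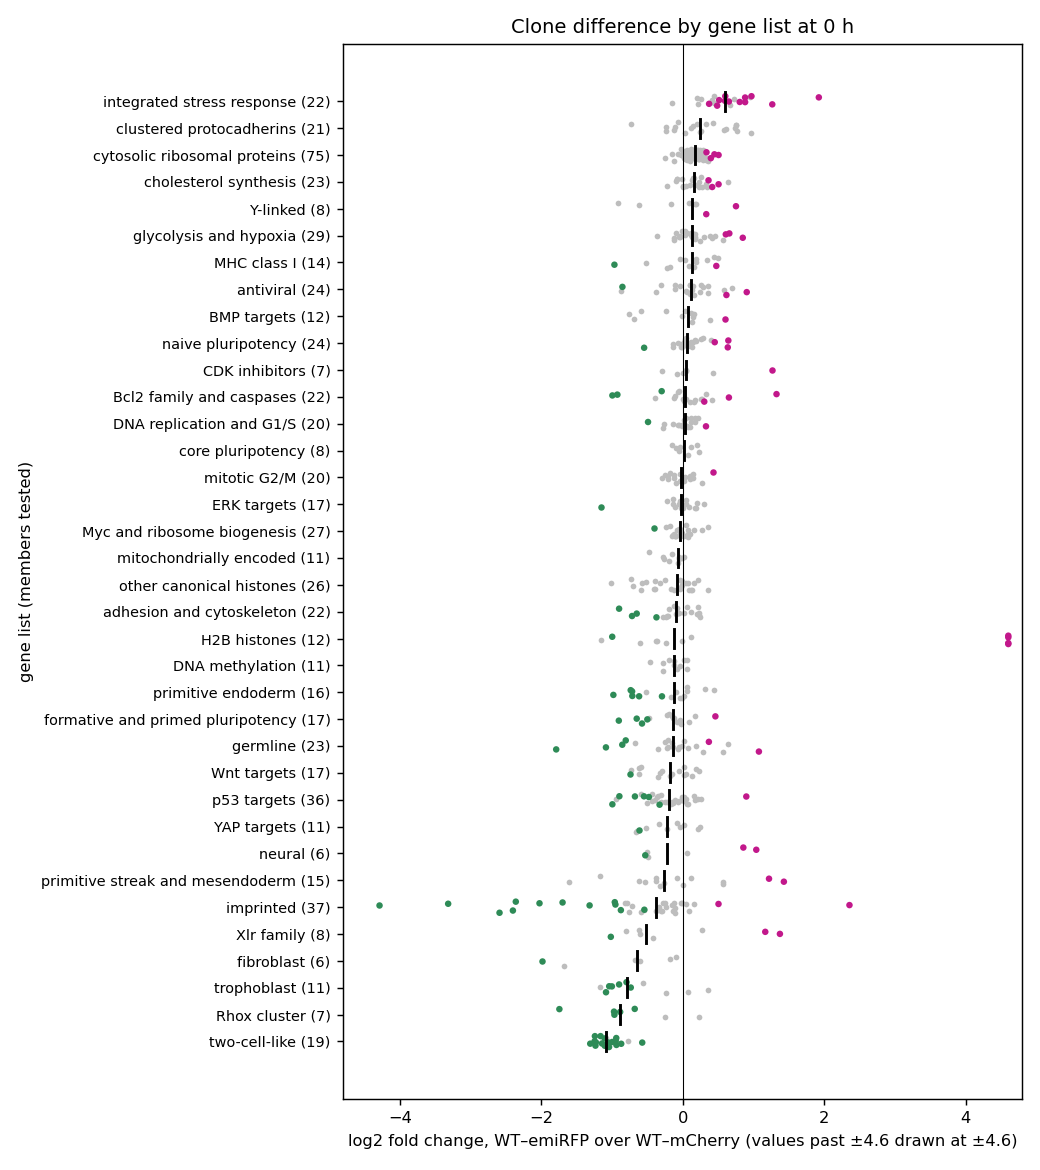
Log2 fold changes of WT–emiRFP over WT–mCherry (horizontal axis) of the tested members of each gene list (rows, with the number tested). Magenta points were called higher and green ones called lower in WT–emiRFP, grey points were not called, and bars are list medians. The 2-cell-like, Rhox and trophoblast lists lie to the left, the stress response list to the right, and the imprinted list has the longest spread apart from the H2B genes, whose 4 high members are drawn at the edge.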

How the data were processed

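Bulk RNA sequencing counts of 69 libraries were analysed, of which 6 are compared here. Per the labels and methods, the authors trimmed reads with Trim Galore 0.6.7, aligned them to GRCm38.p6 with STAR 2.7.11b and deposited raw counts per gene symbol without normalization, and the strand used in counting is not given in the sources used here. Positions were taken from Gencode M21 and promoters from RefSeq.

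Counts were divided by median-of-ratios size factors over all 69 libraries, filtered by filterByExpr and fitted with the quasi-likelihood test of edgeR 4.0.16 in R 4.3.3 (limma 3.58.1) on the 9 mES libraries, which leaves 6 residual degrees of freedom. The contrast was WT–emiRFP minus WT–mCherry. Genes with a Benjamini-Hochberg adjusted p under 0.05 were called, and all log2 fold changes, SE and adjusted p are from this test unless another is named. Gastruloid times were fitted separately, and the clone difference at 48 h was compared with that at 0 h by an interaction term. A single gene tested alone by exact permutation of 3 against 3 could not go below p = 0.1.

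Same-numbered replicates of the clones deviated together (correlations 0.34, 0.22 and 0.254 over 13751 genes) and, per the methods, replicates are experiments at different times. The replicate number was therefore fitted as a block in an alternative. Others were TMM, no filter, only the compared libraries, size factors of the time point, DESeq2 1.42.0, a minimum log2 fold change of 1, each replicate left out, and, added after the data were seen, a GC correction of each library. Pairs of replicates had the same count in 9.27% to 11.4% of genes, and all were kept. GC content was known for 97.9% of tested genes.

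Members and gene lists were chosen with earlier results of these data known. The rule named the 12 largest rises and falls that were called, had a mean of at least 1 log2 CPM and moved alike in all 3 same-numbered pairs, without Gm, Rik and pseudogene symbols (5 and 3 of these were as large). It also named up to 4 called members of each list, 10 genes called at all 6 times and runs of at least 4 neighbours. Other genes were named after their values were seen. Some results are not reported here.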

Additional observations from a re-analysis of the deposited data

Results flagged for a closer look

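The clone difference was compared between mES cells at 0 h and sorted cells of WT + WT gastruloids at 48 h for 30 named genes by the interaction term of edgeR, adjusted over all 19208 genes tested, of which 954 passed (4.97%). Of the 30, 7 passed and 23 did not.

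In 3 genes that were higher in WT–emiRFP mES cells the difference was smaller at 48 h. The difference at 48 h minus that at 0 h was −3.059 on the log2 scale for H2bc14 (adjusted p = 0.00038), −1.377 for H2bc7 (adjusted p = 0.039) and −1.258 for Nupr1, the stress-induced nuclear protein (adjusted p = 0.0032), with differences at 48 h of 7.31, 6.84 and 0.66. All 3 were still higher in WT–emiRFP at 48 h. The WT–mCherry mES libraries held only 3 to 7 raw counts of H2bc14 and 5 to 18 of H2bc7.

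In 4 genes that were lower in WT–emiRFP mES cells the difference moved towards 0. The change was 1.645 for the imprinted gene Magel2 (adjusted p = 0.00014), 1.208 for the potassium channel gene Kcnj3 (adjusted p = 0.0027), 1.543 for Inka2 (adjusted p = 0.0053) and 1.404 for Nt5e, which encodes CD73 (adjusted p = 0.0027), with differences at 48 h of −0.07, −0.40, 0.16 and 0.03. Of these only Kcnj3 was still called at 48 h. The 0 h and 48 h libraries differ in culture, sorting and time, which cannot be told apart. The genes were chosen for large differences at 0 h, so a smaller difference in other libraries is to be read with that choice in mind.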

How the results depend on the processing

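No called log2 fold change of a named gene changed its sign in the alternatives run, while values near 0 that were not called did. The number of genes called at 0 h was 2033. It was 3179 with the replicate block, 3517 with the block and GC correction and 15 with a minimum log2 fold change of 1, and ranged from 883 to 2597 when 1 replicate was left out. The number called in 1 direction at all 6 times was 40. It was 67 without the low-count filter, 101 with the replicate block, 24 with only the compared libraries and 10 with the minimum fold change, and ranged from 36 to 40 when 1 replicate of the 0 h libraries was left out. The block of replicate numbers raised the calls of 19 of 38 lists by more than 1.5 times and lost the call of 0 named genes. Of calls of named genes, the minimum fold change lost 188, the fit of only the compared libraries 42 and the GC correction 21, and the 6 fits without 1 replicate lost 321 between them. The causes were not tested. Depth, 26722541 to 72981570 counts a library, limits the precision of genes with few counts, and 3 replicates of 1 clone cannot show how other clones differ.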
